A study of Mus musculus with 10 samples.

Results

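The 10 genes described here are imprinted growth genes and noncoding RNAs, *H19*, *Igf2*, *Meg3*, *Rian*, *Mirg*, *Dlk1*, *Cdkn1c*, *Grb10*, *Peg3* and *Mest*. They were picked by symbol from the 49315 genes counted in mouse gastrocnemius muscle. All 10 had enough counts to be tested and are therefore among the 14714 genes that passed the filter on low counts. The muscles came from 10 male mice, 5 labelled AHRfl and 5 labelled AHRmko, all of them exposed to cigarette smoke. According to the study they were bred by crossing floxed *Ahr* mice with HSA-MCM mice, and C57BL6J is named for its other experiments. AHRfl mice carry the floxed *Ahr* gene, and according to the study they are littermates without Cre. Tamoxifen is named for the AHRmko mice, and the sources used here do not say outright that the AHRfl mice were injected. *Ahr* encodes the aryl hydrocarbon receptor, which turns genes on when a ligand such as a component of smoke binds it. AHRmko mice carry in addition the HSA-MCM transgene, a tamoxifen-inducible MerCreMer recombinase driven by the human skeletal actin promoter, so that deletion is directed to muscle fibres and not to the other cells of the muscle. Smoke was given for 16 weeks, on 5 days per week and 2 times per day for 1 h, at 220 ± 80 mg/m3, beginning 4 weeks after tamoxifen by the labels, a time for which the study's text also gives a shorter value. Muscles were taken 72 h after the last exposure by the labels, while the study's text also allows a shorter interval. No air-exposed mice are among these libraries, so the comparison is between genotypes under smoke. Whether the mice of a genotype came from separate litters is not given by the labels.

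Imprinted genes are transcribed mainly or only from the chromosome of 1 parent, through DNA methylation that is set in the germ line and kept through development. Many of them act on growth, and several lie in clusters in which a noncoding RNA is made from the maternal chromosome and a growth-promoting protein gene from the paternal one. In muscle most are known for high levels before birth and a decline afterwards. The counts do not separate the parental alleles, so nothing here measures imprinting itself. In RNA of muscle tissue, fewer cells of a type cannot be told apart from less RNA per cell.

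In GRCm38, *H19* (ENSMUSG00000000031, chr7:142575529-142578143) and *Igf2* (ENSMUSG00000048583, chr7:142650766-142666816) lie on the minus strand 72.62 kb apart, and *Cdkn1c* (ENSMUSG00000037664, chr7:143458339-143461050) lies 791.5 kb beyond *Igf2*. *Peg3* (ENSMUSG00000002265, chr7:6703892-6730431) is at the other end of the same chromosome. The second cluster is on the plus strand of chromosome 12 and runs from *Dlk1* (ENSMUSG00000040856, chr12:109452823-109463336) through *Meg3* (ENSMUSG00000021268, chr12:109541001-109571726) and *Rian* (ENSMUSG00000097451, chr12:109603940-109661716) to *Mirg* (ENSMUSG00000097391, chr12:109729764-109749460). *Grb10* (ENSMUSG00000020176, chr11:11930508-12038683) is on the minus strand of chromosome 11 and *Mest* (ENSMUSG00000051855, chr6:30723547-30748465) on the plus strand of chromosome 6. Parts of some exons are shared with other genes, and the study's methods state counting by strand only for the case of a strand-specific library, without saying whether these libraries were. The antisense gene Gm44732 covers 30.7% of the exon bases of *Cdkn1c*, and *Copg2*, on the opposite strand, covers 23.1% of those of *Mest*. The share was 9.15% for *H19*, between 1.71% and 8.29% for *Igf2*, *Meg3*, *Rian* and *Mirg*, and 0% for *Dlk1*, *Grb10* and *Peg3*.

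Several of these RNAs are also hosts of microRNAs, which bind target messages mainly through the seed, bases 2 to 8. RefSeq places 22 miRNA genes with 41 mature sequences inside 6 of the 10 genes on the same strand, and 14 of the 22 are inside *Mirg*. The mature sequences of the *H19* and *Igf2* hosts, the pair of genes whose levels are followed in most detail, are shown with the single pair that shares a seed and with the *Mest* product, from the RefSeq table of build GRCm38.p6, with the seed in capitals.
miR-675-5p, inside H19, chr7:142577112-142577133, minus strand: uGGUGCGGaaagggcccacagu
miR-675-3p, inside H19, chr7:142577078-142577099, minus strand: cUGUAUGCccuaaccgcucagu
miR-483-5p, inside Igf2, chr7:142654968-142654989, minus strand: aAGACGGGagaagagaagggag
miR-483-3p, inside Igf2, chr7:142654932-142654952, minus strand: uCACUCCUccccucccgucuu
miR-335-5p, inside Mest, chr6:30741314-30741336, plus strand: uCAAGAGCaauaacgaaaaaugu
miR-453, inside Mirg, chr12:109735669-109735692, plus strand: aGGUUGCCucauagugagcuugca
miR-496a-5p, inside Mirg, chr12:109739132-109739152, plus strand: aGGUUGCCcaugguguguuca
The 41 sequences carry 40 different seeds, the repeated seed being that of miR-453 and miR-496a-5p. The libraries were made from polyadenylated RNA, and the miRNA genes themselves had 0 counts in every mouse for 18 of the 22. A count of 0 allows up to 3 counts, which is between 0.0788 and 0.0927 CPM in these libraries. The other 4 had at most 2 counts in a mouse, so the counts measure the host RNAs and not the microRNAs.

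The RefSeq promoter table (GRCm38.p6), with windows of 300 bases from 250 before to 50 after a transcription start, holds 15 windows for 8 of the 10 genes. The core letters of the response element bound by the AHR dimer, GCGTG on either strand, were found in 3 of the 15, against 32.4% of all 32851 windows. The 3 windows are shown because they are the promoters in which the deleted receptor's motif can be read, with each match in capitals (CACGC is GCGTG on the other strand).
Grb10, chr11:12037371-12037670, minus strand: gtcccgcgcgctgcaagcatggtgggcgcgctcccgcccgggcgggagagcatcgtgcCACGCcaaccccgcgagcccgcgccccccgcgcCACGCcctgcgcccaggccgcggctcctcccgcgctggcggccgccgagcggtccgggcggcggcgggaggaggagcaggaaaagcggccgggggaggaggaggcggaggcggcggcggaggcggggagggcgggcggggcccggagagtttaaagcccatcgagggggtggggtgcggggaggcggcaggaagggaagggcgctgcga
Dlk1, chr12:109452573-109452872, plus strand: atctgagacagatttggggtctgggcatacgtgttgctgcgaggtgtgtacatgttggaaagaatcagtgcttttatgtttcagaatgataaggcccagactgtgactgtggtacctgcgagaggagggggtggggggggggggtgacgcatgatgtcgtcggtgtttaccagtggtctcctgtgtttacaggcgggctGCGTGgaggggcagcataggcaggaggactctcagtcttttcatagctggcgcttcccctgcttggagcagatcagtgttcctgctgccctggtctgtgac
Peg3, chr7:6730370-6730669, minus strand: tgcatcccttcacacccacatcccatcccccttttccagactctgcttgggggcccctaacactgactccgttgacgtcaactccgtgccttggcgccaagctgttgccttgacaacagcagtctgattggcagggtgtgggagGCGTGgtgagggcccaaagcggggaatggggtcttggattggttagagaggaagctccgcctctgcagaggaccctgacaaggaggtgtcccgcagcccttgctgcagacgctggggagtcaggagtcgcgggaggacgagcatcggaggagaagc
The *Grb10* window shown has 2 matches, 80% GC and 45 CpG dinucleotides, while the *Dlk1* and *Peg3* windows have 1 match each. The 4 *Igf2* windows, the 2 of *Meg3*, the 3 of *Mest*, the other window of *Grb10* (chr11:12027922-12028221) and those of *Rian* and *Mirg* have none, which says only that these letters are not in these windows.

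Each library held 30393035 to 37954388 counts. The labelled tissue was matched by its markers, since 10 fibre genes, among them *Acta1*, *Myh4* and *Ckm*, summed to between 143590 and 198274 CPM (counts scaled to the TMM-normalized library size). *Ahr* itself had 43 to 110 counts in AHRfl and 31 to 80 in AHRmko mice, ranges that overlapped, and counts of the whole gene do not separate the deleted part. *Esr1*, the gene of the receptor part fused to Cre in MerCreMer, had 544 to 658 counts in AHRfl and 9770 to 24975 in AHRmko mice, so that the transgene labels were matched in every library. Of the marker lists, that of slow fibres differed most among the mice, with sums of 94.8 to 2019 CPM in AHRfl and 252 to 2395 CPM in AHRmko mice. According to the study, red parts of the gastrocnemius were cut out for fibre bundles, and the rest was frozen or used for mitochondria. How much red muscle was left in each RNA sample is not given. Its part in the levels and their spread among the mice was not tested. *Xist* had 44 to 75 counts in 5 of these males and 0 to 3 in the other 5. The Y-linked genes were counted in every library, with 1852 to 2723 counts for *Ddx3y* and 1845 to 2448 for *Eif2s3y*. *Uty* had 301 to 418 and *Kdm5d* 282 to 447 counts.

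Per length of exon, *H19* stood far above the other members in adult muscle. Its mean level was 164 ± 56.7 FPKM (CPM per kb of exon, SD, n = 10), which ranks 210 among the 14686 tested genes with a known length, or the top 1.43%. *Cdkn1c*, which encodes the cyclin-dependent kinase inhibitor p57, followed at 12.5 ± 2.25 FPKM (top 16.2%). *Igf2*, the fetal insulin-like growth factor, was at 2.21 ± 0.444 FPKM, and *Grb10*, an adaptor protein that restrains signalling from the insulin and IGF1 receptors, was at 1.96 ± 0.418 FPKM. Both were near the median of the tested genes, 1.96 FPKM. The maternally expressed RNA *Meg3* was at 1.02 ± 0.145 FPKM and *Mest*, which encodes a protein of the alpha/beta hydrolase fold, at 0.792 ± 0.131 FPKM. *Rian*, a host of small nucleolar RNAs, and *Peg3*, which encodes a zinc finger protein, stood at 0.331 ± 0.0444 and 0.327 ± 0.0725 FPKM. The lowest were *Dlk1*, which encodes a membrane protein related to the Notch ligands, at 0.0989 ± 0.0528 FPKM, and *Mirg* at 0.0823 ± 0.0314 FPKM, both in the last 5% of the tested genes.

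**Figure D1:**
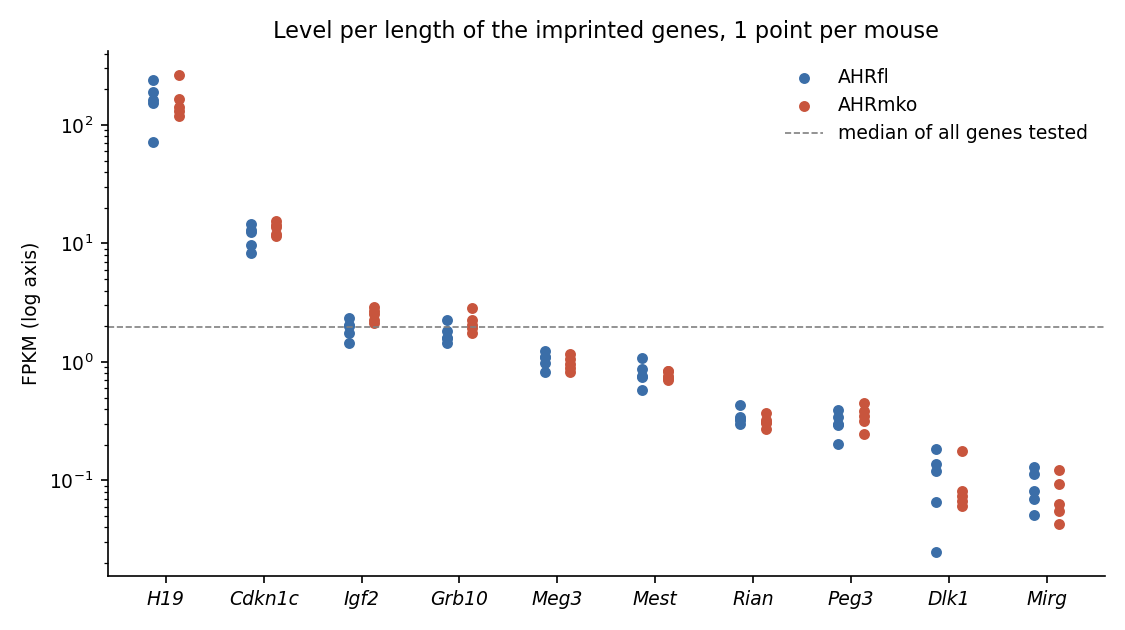
FPKM of each gene on a log axis, ordered by the mean over 10 mice, with 1 point per mouse coloured by genotype and the median of all tested genes as a dashed line. *H19* and *Cdkn1c* lie above that line in every mouse, and *Meg3*, *Mest*, *Rian*, *Peg3*, *Dlk1* and *Mirg* lie below it in every mouse.

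The order held in all 10 mice between *H19* and *Cdkn1c* (13.1 times), *Cdkn1c* and *Igf2* (5.67 times), *Grb10* and *Meg3* (1.93 times), *Mest* and *Rian* (2.39 times) and *Peg3* and *Dlk1* (3.31 times), whose ranges did not overlap. The neighbours *Igf2* and *Grb10*, *Meg3* and *Mest*, *Rian* and *Peg3*, and *Dlk1* and *Mirg* overlapped in range, with the first of each pair above the second in 7, 8, 5 and 7 of the 10 mice. The differences within these pairs were not tested. With the longest transcript in place of all exons as the length, *Grb10* rose to 3.52 FPKM and passed *Igf2* at 2.68, *Mirg* at 0.157 FPKM passed *Dlk1* at 0.120, and *Rian* rose to 0.746 FPKM, while *H19* stayed at the top with 177 FPKM.

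Between the genotypes none of the 10 genes had a change that passed the test. An adjusted p under 0.05 was reached by 0 of the 10 in the quasi-likelihood test of edgeR, where 0.0068% of all tested genes did. An unadjusted p under 0.05 was found for 2 of the 10, *Igf2* and *Grb10*, and for 6.61% of all tested genes. DESeq2 and limma-voom each also gave 0 past the adjusted threshold and 2 under the unadjusted p, DESeq2 giving no adjusted p for *Dlk1* and *Mirg*. In 0 of the 10 were the mice of both genotypes fully separated in log2 CPM, against 1.4% of all tested genes. The log2 fold change of AHRmko against AHRfl was above 0 for 5 of the 10 and below 0 for the other 5, where 51.5% of all tested genes were above 0. Its median was -0.03 over the 10 genes and 0.0056 over all tested genes.

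**Figure D2:**
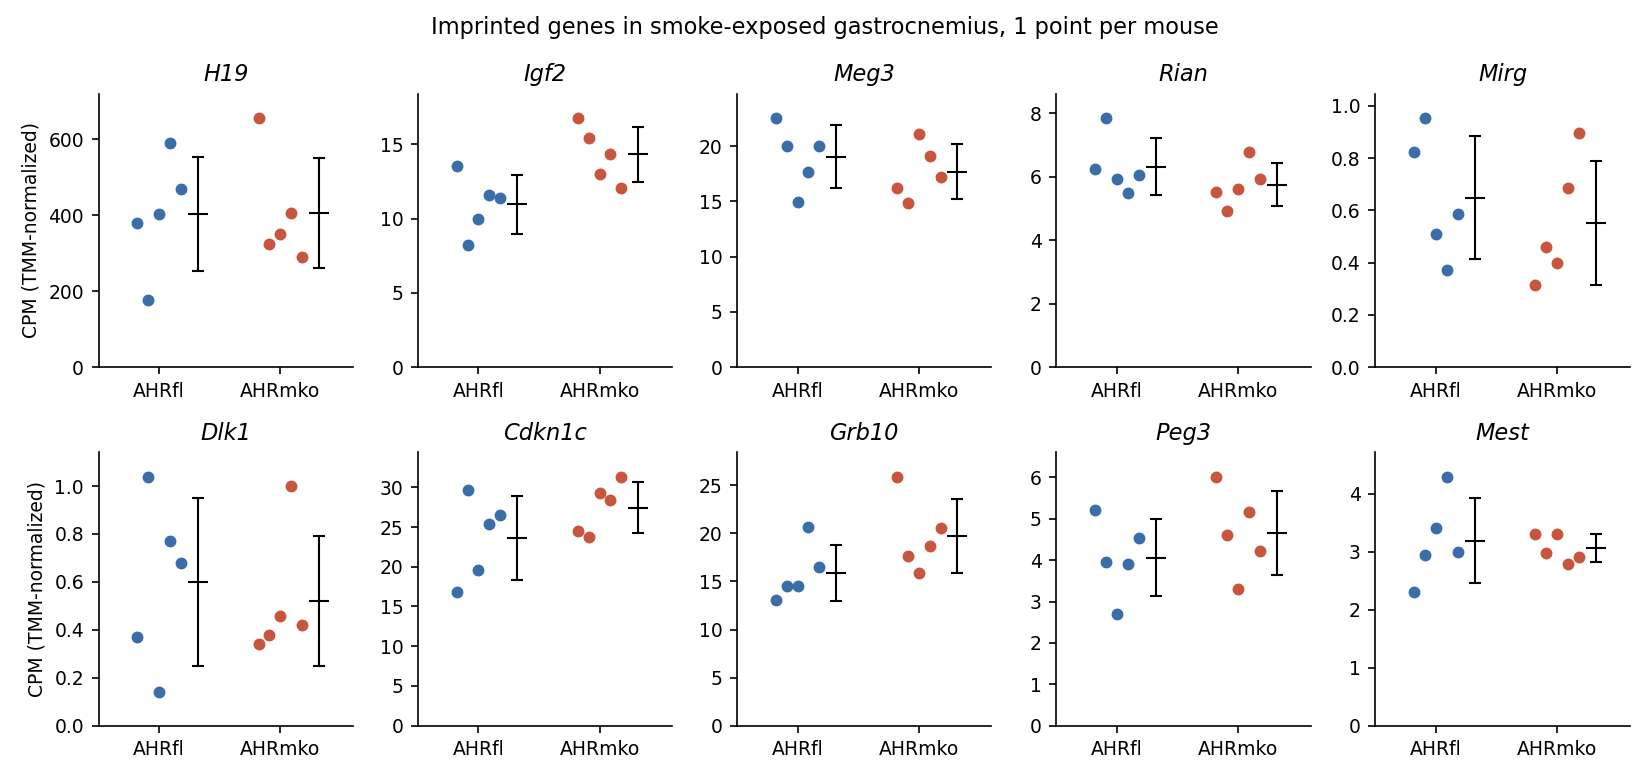
CPM of each gene, 1 point per mouse, with the mean ± SD of the 5 mice of a genotype beside the points. The points of AHRfl and AHRmko mice overlap in all 10 panels, and *H19*, *Mirg* and *Dlk1* show the widest scatter relative to their mean.

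**Figure D3:**
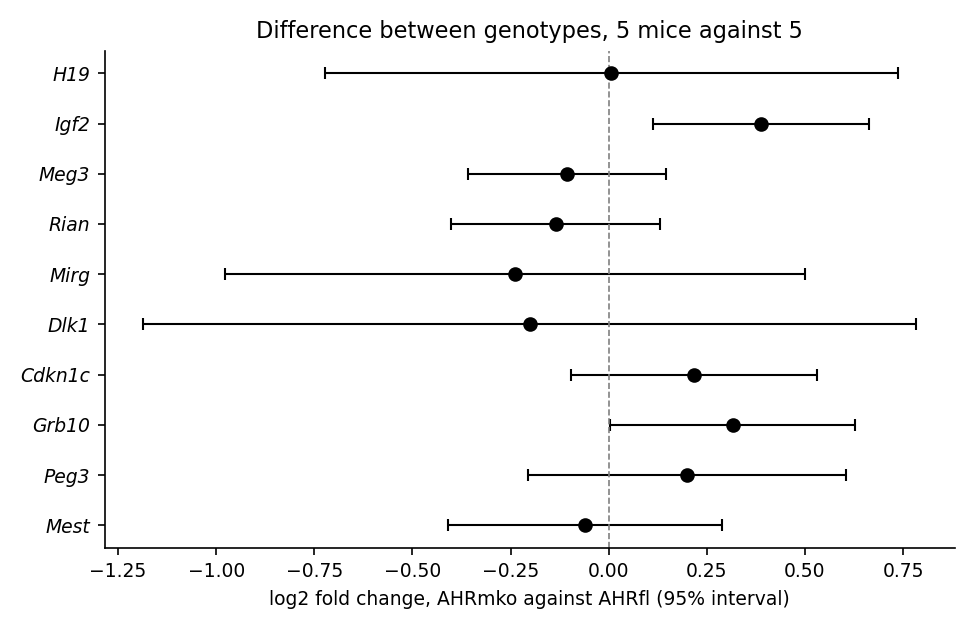
Log2 fold change of AHRmko against AHRfl mice for each gene as a point, with the 95% interval of edgeR's fit as a bar and 0 as a dashed line. The intervals of *Igf2* (0.11 to 0.66) and *Grb10* (0.003 to 0.63) lie above 0 before adjustment for the number of genes, and the other 8 include 0.

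The growth factor *Igf2* had the lowest p of the 10. The AHRfl mice had 8.25, 9.96, 11.4, 11.6 and 13.6 CPM, and the AHRmko mice had 12.1, 13.01, 14.4, 15.4 and 16.8 CPM. All 5 AHRmko mice were above the AHRfl median and 3 were above every AHRfl mouse, but AHRfl mouse 11, at 13.6 CPM, kept the groups overlapping. The means were 10.96 ± 1.98 and 14.3 ± 1.86 CPM (SD, n = 5 each), a log2 fold change of 0.39 (standard error 0.128, 95% interval 0.11 to 0.66), or 1.31-fold. The unadjusted p was 0.00936, the adjusted p over 14714 genes 0.647 (edgeR), and the two-sided exact permutation p on log2 CPM 0.0317. The difference did not pass the threshold after adjustment. It was between 0.30 and 0.48 with each mouse left out in turn.

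*H19*, the maternally expressed noncoding RNA whose transcription shares enhancers with *Igf2*, had almost the same mean in both genotypes and a wide spread within each. The AHRfl mice had 178, 379, 403, 469 and 589 CPM, the lowest being mouse 12 and the highest mouse 15. The AHRmko mice had 291, 325, 351, 405 and 655 CPM, the highest being mouse 8. Thus the 4 lower AHRmko mice lay inside the AHRfl range and only mouse 8 lay above it. The means were 404 ± 150 and 406 ± 146 CPM (SD, n = 5 each), which is a log2 difference of 0.01 in the fit (standard error 0.324 and 95% interval -0.72 to 0.74, adjusted p = 0.999 by edgeR, two-sided exact permutation p = 0.913). The interval spans 0.606-fold to 1.67-fold, so that changes within this range are not excluded. The sign depended on single mice, with -0.02 without AHRfl mouse 11, -0.23 without AHRmko mouse 8, -0.18 without AHRfl mouse 12 and 0.18 without AHRfl mouse 15. With library size alone it was -0.01.

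*H19* varied more among the mice than most tested genes. Its counts per mouse ranged from 6165 to 24943, at which counting error alone is 0.833%, and in CPM the highest mouse, AHRmko 8, was 3.68 times the lowest, AHRfl 12. edgeR's biological coefficient of variation, the spread within genotypes beyond counting error, was 35.3%, above 92.8% of the tested genes, whose median was 15.1%. *Dlk1* (45.5%, above 97.2% of the genes) and *Mirg* (31.99%, above 89.6%) were also high, but these had only 5 to 38 and 12 to 33 counts per mouse. The other 7 genes had coefficients between 14.1% and 20.9%.

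The level of *H19* moved with the fibre-type genes across the mice, those of slow fibres among them. Mouse 12, with the lowest *H19*, also had the lowest sum of the 8 slow-fibre markers in AHRfl, 94.8 CPM, and the mice with the highest *H19*, AHRfl 15 and AHRmko 8, had the highest sums, 2019 and 2395 CPM. Over 10 mice, log2 CPM of *H19* and the slow-fibre score (mean log2 CPM of *Myh7*, *Tnnt1*, *Tnni1*, *Tnnc1*, *Atp2a2*, *Myl2*, *Myl3* and *Tpm3*) had a Pearson r of 0.84 (permutation p = 0.00119, adjusted p = 0.0238 over 20 relations) and a Spearman rho of 0.84 (permutation p = 0.00396, adjusted p = 0.0792). The r was 0.88 within AHRfl, 0.82 within AHRmko and 0.86 with genotype means removed. It was 0.68 once AHRfl 12 and AHRmko 8, whose scores lay farthest out, were omitted. A size of r at least this large was found for 2.8% of all tested genes. The relation was not particular to slow fibres. With genotype means removed, r with *H19* was 0.94 for *Myh2* and 0.88 for *Myh1*, myosins of fast oxidative and intermediate fibres, against 0.74 to 0.96 for the 8 slow-fibre markers. It was -0.84 for *Myh4*, the myosin of the fastest fibres, -0.89 for *Tnnt3* and -0.90 for *Tnni2*, fast troponins. These values are a description over 10 mice, without a test. With each mouse left out in turn r stayed between 0.76 and 0.89, but the adjusted p rose above 0.05 without AHRfl 12, 15 or 33 or AHRmko 8 or 9, up to 0.197 without AHRfl 12.

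In a fit that also held the slow-fibre score, the log2 fold change of *H19* was -0.18, again far from the threshold (adjusted p = 0.862, edgeR). Over all 10 mice *Grb10* was next closest to the score, with r = 0.67 and rho = 0.73 (permutation p = 0.0337 and 0.0199, adjusted p = 0.315 and 0.199). Its r was 0.50 without AHRfl 12 and AHRmko 8. The order changed without these mice, since *Dlk1* then had the highest r, 0.87, against 0.23 over all 10 mice. *Cdkn1c* then had 0.52, against 0.19. With the score in the fit the log2 fold change of *Grb10* was 0.24 with an unadjusted p of 0.0532 (adjusted p = 0.650, edgeR), which left *Igf2* as the only member under 0.05 before adjustment. That of *Mirg* went from -0.24 to -0.06. All 8 slow-fibre markers had log2 fold changes above 0 (median 0.42), with 0 of the 8 under an unadjusted p of 0.05 by edgeR. The relations to the score of the fibroblast and adipogenic progenitor markers, which make up the rest of the 20, had r between -0.18 and 0.59 and a lowest adjusted p of 0.315. These relations were chosen after the values were seen, and a part of slow fibres in the *H19* level was not tested beyond them.

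**Figure D4:**
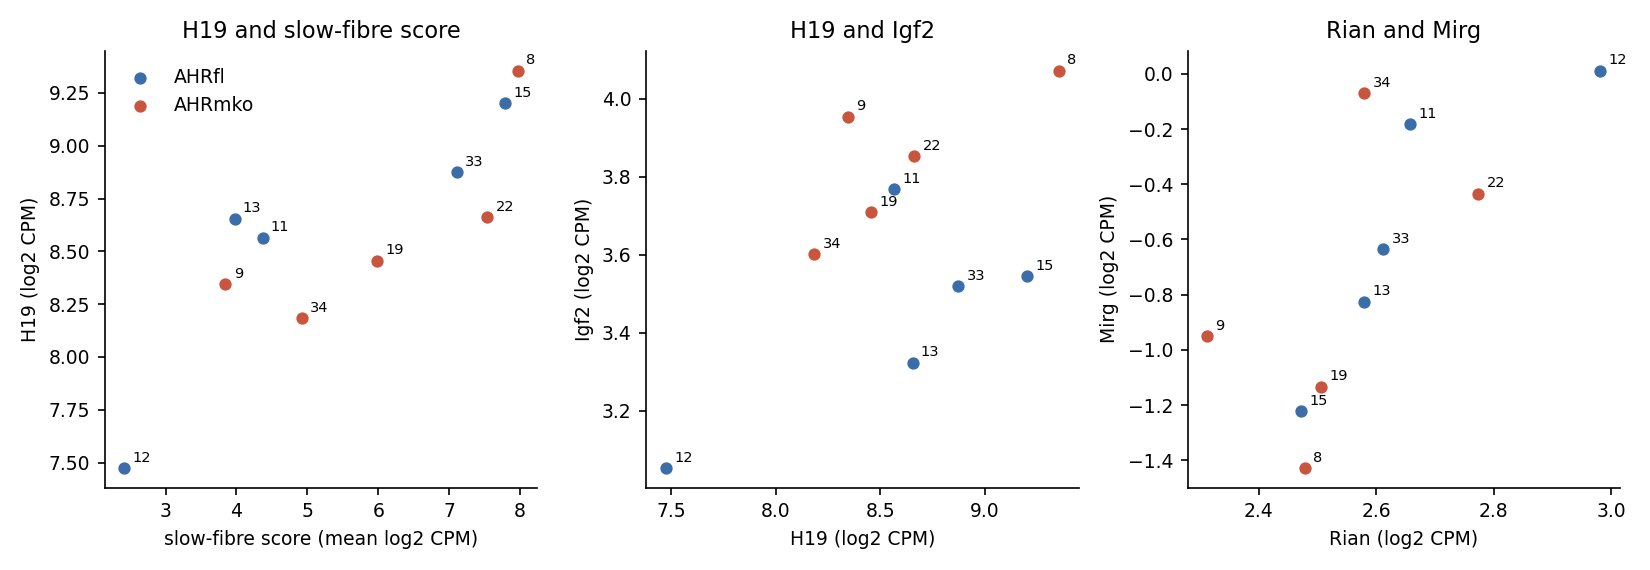
Log2 CPM per mouse, with 1 numbered point per mouse coloured by genotype, for *H19* against the slow-fibre score, *Igf2* against *H19*, and *Mirg* against *Rian*. AHRfl 12 lies at the low end of the first and second panels and AHRmko 8 at the high end of both. *Rian* and *Mirg* had r = 0.87 in AHRfl and 0.54 in AHRmko mice.

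*H19* and *Igf2*, the neighbours on chromosome 7, had r = 0.56 over 10 mice (permutation p = 0.0881, adjusted p = 0.233 over 9 pairs within a locus) and rho = 0.27 (permutation p = 0.450, adjusted p = 0.450). It was 0.72 in AHRfl, 0.77 in AHRmko and 0.74 with genotype means removed. Without AHRfl 12 and AHRmko 8 it was -0.39, so the relation rests on these mice. The ratio of *H19* to *Igf2* per length had medians of 94.2 in AHRfl (range 50.1 to 118) and 62.8 in AHRmko mice (range 49.0 to 91.0), which overlapped (two-sided exact permutation p = 0.214 on the log2 ratio, n = 5 each). *Cdkn1c* had r of -0.29 to *H19* and -0.15 to *Igf2* over all mice (permutation p = 0.403 and 0.674, adjusted p = 0.471 and 0.674), and neither passed the threshold. For *Igf2* and *Cdkn1c* the values inside the genotypes were lower than the pooled one, with r of -0.64 in AHRfl, -0.93 in AHRmko and -0.71 with genotype means removed. These values within genotypes, over 5 mice each, carry no test.

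*Cdkn1c* was at 16.8, 19.6, 25.4, 26.6 and 29.6 CPM in the AHRfl mice and at 23.7, 24.5, 28.3, 29.3 and 31.3 CPM in the AHRmko mice. The 2 lowest AHRfl mice, 11 and 13, lay below every AHRmko mouse, AHRmko mouse 34 lay above every AHRfl mouse, and the remaining mice were intermixed. The means were 23.6 ± 5.26 and 27.4 ± 3.24 CPM (SD, n = 5 each), a log2 fold change of 0.22 (standard error 0.144, 95% interval -0.10 to 0.53, adjusted p = 0.826 by edgeR, two-sided exact permutation p = 0.230). It was 0.12 without AHRfl mouse 11 and 0.31 without AHRfl mouse 12. Of the other imprinted genes near it, *Kcnq1ot1*, the noncoding RNA that silences this cluster on the paternal chromosome, had 542 to 856 counts per mouse and a log2 fold change of 0.03 (adjusted p = 0.990, edgeR). *Phlda2*, *Ascl2* and *Ins2* had at most 2 counts in a mouse, and *Slc22a18* had 3 to 13.

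Of the chromosome 12 cluster, *Meg3* was the most abundant member. The AHRfl mice had 14.9, 17.7, 20.04, 20.1 and 22.5 CPM and the AHRmko mice 14.8, 16.2, 17.3, 19.1 and 21.1 CPM, so that both genotypes covered nearly the same range. *Rian* was at 5.49, 5.92, 6.06, 6.25 and 7.84 CPM in AHRfl and at 4.91, 5.52, 5.62, 5.92 and 6.78 CPM in AHRmko mice. The log2 fold changes were -0.11 (standard error 0.117, 95% interval -0.36 to 0.15, adjusted p = 0.907 by edgeR) for *Meg3* and -0.13 (standard error 0.123, 95% interval -0.40 to 0.13, adjusted p = 0.884) for *Rian*, with two-sided exact permutation p of 0.460 and 0.333. These intervals, the narrowest of the 10 genes,  leave out changes beyond 0.781-fold and 1.11-fold for *Meg3* and beyond 0.757-fold and 1.095-fold for *Rian*.

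*Mirg* and the protein gene *Dlk1* had wider intervals. *Mirg* had 0.372 to 0.952 CPM in AHRfl and 0.315 to 0.897 CPM in AHRmko mice, and its log2 difference was -0.24 (standard error 0.343, 95% interval -0.98 to 0.50, adjusted p = 0.934 by edgeR, two-sided exact permutation p = 0.484). *Dlk1* had 0.141, 0.370, 0.680, 0.772 and 1.04 CPM in AHRfl mice. In AHRmko mice it had 0.341, 0.380, 0.419, 0.457 and 0.999 CPM, with mouse 22 far from the other 4. The log2 difference between genotypes was -0.20 (standard error 0.456, 95% interval -1.19 to 0.78, adjusted p = 0.963 by edgeR, two-sided exact permutation p = 0.921), it was -0.58 without AHRmko mouse 22, and it turned to 0.09 without AHRfl mouse 12. *Rtl1* and *Begain*, other genes of this cluster, had 0 to 8 and 1 to 15 counts and were not tested, and *Dio3*, a thyroid hormone deiodinase, had 4 to 45 counts and a log2 fold change of -0.24 (adjusted p = 0.967, edgeR).

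Over all 10 mice, the highest r between members of a locus was that of *Rian* and *Mirg*, which lie 68.05 kb apart on the same strand. Its value was 0.72 (permutation p = 0.0128, adjusted p = 0.115 over the 9 pairs) and rho 0.78 (permutation p = 0.0108, adjusted p = 0.0968). It was 0.87 in AHRfl and 0.54 in AHRmko mice, 0.71 with genotype means removed, where *H19* and *Igf2* had 0.74, and 0.73 without AHRfl 12 and AHRmko 9. The relation did not pass the threshold after adjustment. *Meg3* had r = 0.53 with *Rian* and 0.42 with *Mirg* (permutation p = 0.113 and 0.224, adjusted p = 0.233 and 0.336), and *Dlk1* had r = 0.51, 0.52 and 0.29 with *Meg3*, *Rian* and *Mirg* (permutation p = 0.130, 0.121 and 0.419, adjusted p = 0.233, 0.233 and 0.471). None of these could be told from 0 in 10 mice. Per length, *Meg3* was 3.24 times *Rian* at the median of AHRfl and 2.96 times at the median of AHRmko mice (two-sided exact permutation p = 0.810, n = 5 each). The ratio depends on the length used, since the longest transcripts give 1.26 FPKM for *Meg3* and 0.746 for *Rian*.

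*Grb10* was at 13.1, 14.5, 14.6, 16.5 and 20.7 CPM in AHRfl and at 15.9, 17.7, 18.7, 20.5 and 25.9 CPM in AHRmko mice. All 5 AHRmko mice lay above the AHRfl median, but only mouse 8 lay above every AHRfl mouse, since AHRfl mouse 15 was higher than 4 of the 5. The means were 15.9 ± 2.94 and 19.7 ± 3.81 CPM (SD, n = 5 each), a log2 fold change of 0.32 (standard error 0.144, 95% interval 0.003 to 0.63), with p = 0.0481 unadjusted and 0.754 adjusted (edgeR) and a two-sided exact permutation p of 0.111. Without AHRmko mouse 8 the log2 fold change was 0.20, and without AHRfl mouse 15 it was 0.43. The neighbouring *Ddc* had 8 to 26 counts and *Cobl* 1702 to 2527, with log2 fold changes of -0.28 and -0.09 (adjusted p = 0.934 and 0.913, edgeR).

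The paternally expressed *Peg3* had 2.71, 3.92, 3.95, 4.54 and 5.203 CPM in AHRfl mice and 3.31, 4.22, 4.61, 5.15 and 6.01 CPM in AHRmko mice. In the fit it differed by 0.20 on the log2 scale (standard error 0.188, 95% interval -0.21 to 0.60, adjusted p = 0.886 by edgeR, two-sided exact permutation p = 0.389), with the groups overlapping over most of their range. *Zim1*, 7.442 kb away, differed by 0.31 on the log2 scale (adjusted p = 0.819, edgeR) from 49 to 108 counts. *Usp29* had 0 to 17 counts, and *Zim2* was at 0 in every mouse, which allows up to 0.0927 CPM. *Mest* had 2.30, 2.94, 3.00, 3.41 and 4.29 CPM in AHRfl and 2.79, 2.90, 2.98, 3.31 and 3.31 CPM in AHRmko mice, the latter all inside the AHRfl range. The fitted log2 difference was -0.06 (standard error 0.162, 95% interval -0.41 to 0.29, adjusted p = 0.971 by edgeR, two-sided exact permutation p = 0.778), and 0.07 without AHRfl mouse 15. *Copg2*, which shares exon bases with it on the other strand, was at 452 to 604 counts and 0.11 (adjusted p = 0.815, edgeR).

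For each gene the 3 most alike among all tested genes were taken by Pearson r of log2 CPM over 10 mice with genotype means removed, as a description without a test, since the highest of so many values is high in any set of 10 mice. *H19* was closest to *Inpp5e* (0.98), *Atr* (0.98) and *Myoz2* (0.97), the last a sarcomere protein of slow fibres. *Igf2* was closest to *Atp2b4*, *Zfp646* and *Plscr4* (0.97 each), and *Peg3* to *Anxa5* (0.98), Gm16365 (0.96) and *Olfr1033* (0.95). *Meg3* was closest to Gm26836 (0.95), *Cd209a* (0.93) and *Taf1d* (0.91), *Rian* to *Psma7* (0.93), *Fau* (0.90) and *Gemin2* (0.90), and *Mirg* to *Sbk2* (0.94), *Tradd* (0.92) and *Dnaic1* (0.91). *Dlk1* was closest to *Rbbp9* (0.92), *Tbca* (0.91) and *Trpv2* (0.89), and *Cdkn1c* to *Mrpl1* (0.94), A330009N23Rik (0.93) and *Rmi2* (0.93). *Grb10* was closest to *Adcy9* (0.93), *Rapgef2* (0.92) and *Dlg5* (0.92), and *Mest* to *Grpel2* (0.92), *Nup43* (0.91) and *Ggcx* (0.91). No member was among the 3 closest of another.

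Other imprinted genes were also without a change that passed the test. Of 63 listed, 43 were tested, and 0 of the 43 had an adjusted or an unadjusted p under 0.05 (edgeR), where 6.61% of all tested genes had the latter. Of the 43, 14 were above 0, against 51.5% of all tested genes, and the median log2 fold change was -0.06. The extremes were *Slc22a3*, an organic cation transporter, at 0.63 (standard error 0.331, adjusted p = 0.792) and *Tspan32* at -0.51 (standard error 0.441, adjusted p = 0.875). Among the abundant ones, *Nap1l4* was at 78.02 FPKM with a log2 fold change of 0.05, and *Gnas*, which encodes the stimulatory G protein alpha subunit, was at 38.97 FPKM with -0.13 (adjusted p = 0.896 and 0.835, edgeR).

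The IGF axis, the receptors, binding proteins and mediators around *Igf2*, had 15 of 19 genes tested and 0 with an adjusted p under 0.05 (edgeR). An unadjusted p under 0.05 was found for 13.3% of the 15, where 6.61% of all tested genes had it, with 1 gene above and 1 below 0. These were *Irs1*, an adaptor of the insulin receptor, at 0.34 (21.2 against 26.8 CPM in the means, adjusted p = 0.683) and *Igf1*, the growth factor of postnatal life, at -0.35 (14.1 against 11.03 CPM, adjusted p = 0.665), both by edgeR. *Igf2* and *Igf1* thus had log2 fold changes of opposite sign, and neither passed the threshold. *Igf2r*, the receptor that clears IGF2, had a log2 fold change of -0.04 (standard error 0.0599, adjusted p = 0.939, edgeR). Of the genes that maintain imprints, 18 of 22 were tested and 0 passed. An unadjusted p under 0.05 was found for 11.1% of the 18, where 6.61% of all tested genes had it. These were 2 genes above 0, *Dnmt3b*, a DNA methyltransferase (0.75, 0.507 against 0.855 CPM, adjusted p = 0.696), and *Setdb1*, a histone methyltransferase (0.17, adjusted p = 0.740), both by edgeR. The lowest was *Mbd3* at -0.16 (adjusted p = 0.792). *Ctcf*, the insulator protein bound between *H19* and *Igf2*, was at 0.08 (standard error 0.0671, adjusted p = 0.868, edgeR). *Zfp57* and *Trim28*, which guard methylated imprints, were at 0.05 and -0.03.

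**Figure D5:**
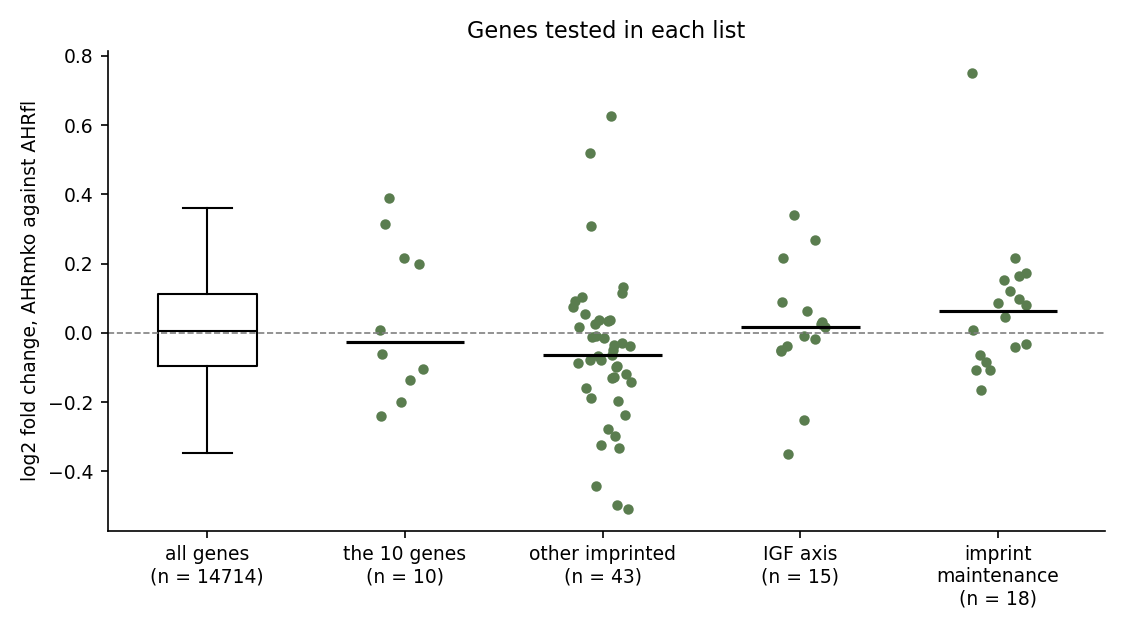
Log2 fold change of AHRmko against AHRfl mice for the tested genes of each list, 1 point per gene with the median as a line, beside a box for all 14714 tested genes (quartiles, median, and whiskers from the 5th to the 95th percentile). The medians were -0.03 for the 10 genes, -0.06 for other imprinted genes, 0.02 for the IGF axis and 0.06 for imprint maintenance, and 0 genes of these lists had an adjusted p under 0.05 (edgeR).

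Markers of other cell types that the muscle could hold were read beside these values. Fibroblast and adipogenic progenitor markers summed to 650 to 948 CPM in AHRfl and 653 to 1123 CPM in AHRmko mice, tendon markers to 132 to 442 and 104 to 423 CPM, endothelial markers to 132 to 199 and 144 to 254 CPM, and satellite cell markers to 160 to 200 and 148 to 188 CPM. Regenerating fibre markers summed to 86.1 to 122 CPM in AHRfl and 100 to 252 CPM in AHRmko mice, with 2 of 7 tested above 0 at an unadjusted p under 0.05, which 6.61% of all tested genes had, *Myod1* and *Actc1* (adjusted p = 0.606 and 0.724, edgeR). Schwann cell and nerve markers summed to 64.4 to 117 and 36.0 to 109 CPM, macrophage markers to 16.2 to 27.8 and 13.3 to 35.8 CPM, adipocyte markers to 120 to 201 and 103 to 217 CPM, pericyte and smooth muscle markers to 273 to 414 and 272 to 478 CPM, and erythroid markers to 105 to 321 and 143 to 482 CPM. The log2 fold change was above 0 for 0 of 7 Schwann cell and nerve markers (median -0.28). It was above 0 for 5 of 5 erythroid (median 0.51) and 6 of 6 endothelial markers (median 0.12), against 51.5% of all tested genes. No gene of these lists had an adjusted p under 0.05 by edgeR, and beyond *Myod1* and *Actc1* only the tendon factor *Scx* had an unadjusted p under 0.05 (log2 fold change -0.65, adjusted p = 0.606). *Igf2* moved with the vascular markers, with r between 0.79 and 0.87 for the 6 endothelial markers and between 0.66 and 0.91 for the 6 pericyte and smooth muscle markers (genotype means removed, 10 mice, without a test). Of the 10 fibre genes, *Igf2* had r of -0.86 with *Ckm*, -0.87 with *Tnnt3*, -0.83 with *Tnni2* and -0.83 with *Actn3*. The r was weaker with *Myh4* (-0.66), *Mylpf* (-0.60), *Ttn* (-0.37) and *Acta1* (-0.35). It was above 0 with *Myh2* (0.72) and *Myh1* (0.60). *H19* had r between 0.55 and 0.78 with the endothelial markers. Between the genotypes, log2 fold changes were between 0.04 and 0.18 for the endothelial markers. They were between -0.16 and 0.16 for the pericyte and smooth muscle markers. Apart from these values, the relations to the slow-fibre and progenitor scores and the fits with these scores, the part of these cells in the levels of the imprinted genes was not tested.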

How the data were processed

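Gastrocnemius RNA of 10 mice was sequenced as paired-end, poly(A)-selected libraries. According to the labels and methods, the authors used Trimmomatic 0.36 for trimming, STAR 2.5.2b for mapping to GRCm38 and featureCounts for counting unique reads on exons. They deposited raw counts per gene, not normalized and not pooled, and all 10 columns were used. The annotation release and strand setting are not given in the sources used here. The study used DESeq2, and edgeR's quasi-likelihood test was used here as the main test for deposited counts.

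Names, positions and exon lengths were taken from GENCODE M21 (GRCm38), where 49056 of the 49315 identifiers were found. The fit used edgeR 4.0.16 under R 4.3.3 (filterByExpr at its count of 10 and total of 15, TMM, robust estimation, Benjamini-Hochberg over 14714 genes). CPM are TMM-normalized, log2 CPM used a prior count of 2, and FPKM are CPM per kb of all exons. Exact permutation tests covered the 252 assignments of 5 and 5 mice, with 0.00794 as the smallest p. Correlations used 100000 permutations. Total counts of 30393035 to 37954388 set the floor of 3 counts, which covers counting error only, since reads carry no molecular identifiers. Where the labels do not give separate litters, p-values measure the spread between these mice.

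The members and all gene lists were chosen with earlier results of these data known. Named were the 10 members, the 3 genes most alike to each, the extremes of the lists of other imprinted genes, the IGF axis and imprint maintenance, and *Ahr* and *Esr1*. Further genes of known role or beside a member were added after their values were seen. Alternatives were DESeq2 1.42.0, limma-voom (limma 3.58.1), other size factors and filters, a threshold of 0.1, covariates, 1 surrogate variable (sva 3.50.0) and leaving out each mouse. The presence of *Xist* counts (10 or more) as a covariate and the relations to the marker scores were added after the data were seen. The fits were tested on simulated data.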

Additional observations from a re-analysis of the deposited data

Results flagged for a closer look

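*Dlk1* in AHRmko mouse 22 stood apart from the other 4 mice of its genotype. It had 38 counts, or 0.999 CPM, where the other 4 had 13 to 16 counts. Its gap to the nearest mouse was 0.739 of the whole range of log2 CPM in the group, above the critical value of 0.71 for 5 samples. With 20 groups of 5 examined (10 genes in 2 genotypes), chance flags about 1 in 20, and 1 was found. The same mouse had the highest sum of fibroblast and adipogenic progenitor markers of the 10 mice, 1123 CPM. It also had the highest sums of regenerating fibre and macrophage markers, 252 and 35.8 CPM. AHRfl mouse 12, with the highest *Dlk1* of all (1.04 CPM), had a progenitor marker sum of only 807 CPM. Over the 10 mice *Dlk1* had r = 0.57 with the score of the progenitor markers (permutation p = 0.0846, adjusted p = 0.315 over 20 relations). Its log2 fold change was -0.15 with that score in the fit (adjusted p = 0.937, edgeR).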

How the results depend on the processing

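Under the 23 alternatives of the fit, 0 of the 10 genes passed the threshold in any, and the lowest adjusted p of a member was 0.289 (*Igf2*, with 1 surrogate variable). Of 219 values of single members, 211 kept their direction. *H19* reversed with library size alone (-0.0134), the slow-fibre covariate (-0.18) and 1 surrogate variable (-0.15), and ranged from -0.23 to 0.18 with each mouse left out. *Mirg* kept its sign but went from -0.24 to -0.06 with the slow-fibre covariate and -0.08 with 1 surrogate variable, and *Peg3* from 0.20 to 0.12 with the latter. Under the slow-fibre covariate, 1 surrogate variable, library size alone or the *Xist* covariate, 1 member in place of 2 had an unadjusted p under 0.05. The number was also 1 without AHRfl mouse 11, 13 or 33, or without AHRmko mouse 8, 22 or 34. The member left was *Igf2* each time. Without AHRfl mouse 12 the 2 members were *Igf2* and *Cdkn1c* (unadjusted p = 0.046 for *Cdkn1c*, edgeR), and *Grb10* was above 0.05. *Dlk1* ranged from -0.58 to 0.0891 and *Mest* from -0.16 to 0.0700 with each mouse left out. The others kept their sign, with *Mirg* from -0.48 to -0.06 (highest without AHRfl mouse 12), *Rian* from -0.20 to -0.05 (AHRfl 12), *Meg3* from -0.18 to -0.04 (AHRfl 11), *Peg3* from 0.08 (AHRfl 13) to 0.30 (AHRfl 11), *Cdkn1c* from 0.12 to 0.31, *Grb10* from 0.20 to 0.43 and *Igf2* from 0.30 to 0.48. Again leaving out a mouse, the r of *Igf2* and *Cdkn1c* ranged from -0.38 to 0.0755. The r of *H19* and *Igf2* fell to 0.13 without AHRfl mouse 12, that of *H19* and *Cdkn1c* went to -0.12, that of *Dlk1* and *Rian* to 0.30 and that of *Dlk1* and *Mirg* to 0.09 without the same mouse, and that of *Dlk1* and *Meg3* to 0.28 without AHRfl mouse 13. The cause was not tested. The median of the 10 genes ranged from -0.0778 to 0.13 with each mouse left out, the highest without AHRfl mouse 15. The number of genes past the threshold among all tested was 1, and was 21 with DESeq2, 5 with no filter beyond 1 count, 2 with the slow-fibre score and 1 to 6 with each mouse left out, the highest without AHRmko mouse 34. *Igf2* had an unadjusted p between 0.000954 and 0.0317 over its alternatives and *Grb10* between 0.00585 and 0.137. No mouse had 100 *Xist* counts, so leaving such mice out was not run, and *Dlk1* has no value with at least 10 counts in every mouse, since AHRfl mouse 13 had 5. No paired analysis was possible because the labels do not give the litters by which mice of the 2 genotypes could be paired. Counting error was 21.8% for *Mirg* and 22.5% for *Dlk1*, beside a spread beyond counting of 31.99% and 45.5%.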
